A study of Mus musculus with 3 samples.

Results

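Whole skin of male C57BL/6 mice was compared 1 day after cyclophosphamide with untreated skin, gene by gene, to see what differed in the first day after the drug. The comparison rests on 2 of the series' 3 libraries, chosen by their treatment and time labels: day 0 (no drug) and day 1, with 1 library in each group. All mice were 2 months old and had been depilated 9 days before the day of injection, which starts synchronous hair growth, so the untreated skin was growing hair too. The drug was given into the peritoneum at 150 mg/kg per the series design text, while the sample label writes the amount per km. The sources used here do not give how many mice each library holds. No untreated skin from the following day was profiled, so the drug and 1 further day of hair growth cannot be told apart. The third library, from day 2 after the drug, entered only the scaling and the filter on low counts.

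Cyclophosphamide is a prodrug that liver enzymes activate to an alkylating mustard, which crosslinks DNA and is most toxic to dividing cells. In the growing phase of the hair cycle, the matrix at the base of each follicle is among the fastest dividing tissues of the body, and hair loss is a known side effect of the drug. Matrix cells divide next to the dermal papilla, receive Wnt, BMP and Hedgehog signals, and mature into the hair shaft and the inner root sheath that moulds it. Mouse skin also holds epidermis, sebaceous glands, dermis, fat, vessels, immune cells and a thin sheet of skeletal muscle.

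Transcripts were counted by digital gene expression, in which the restriction enzyme NlaIII cuts cDNA at CATG and a tag of 21 bases, CATG and the next 17, is sequenced and counted. The tables held 2731787 tags in 17831 UniGene clusters at day 0 and 2859653 tags in 17308 clusters at day 1. Levels below are in CPM, tags per 1000000 with edgeR's TMM scaling between libraries, and ratios are log2 of day 1 over day 0 with a pseudocount of 0.5 tags. A cluster was called higher or lower at a change of at least 2-fold and an adjusted p of at most 0.001 in an exact conditional binomial test with Benjamini-Hochberg adjustment over 13812 clusters. Here "rose" and "fell" are used only for called genes. Without a second library in either group no difference has a replicate check, and the test compares these 2 libraries, not the conditions. The 95% intervals of ratios cover counting error only and no variation between animals. Copies made by PCR also cannot be told from separate molecules in these counts. In whole skin, fewer cells of a type and less RNA per cell cannot be told apart. Markers of the expected tissues were present in both libraries, with Krt5 and Krt10 of the epidermis, Krt25 of the inner root sheath, Col1a1 of the dermis, Acta1 of muscle and Adipoq of fat all listed. The defining markers Krt85 of the hair shaft, Cd68 of macrophages, Cd3e of T cells and S100a8, Ly6g and Mpo of neutrophils had no named cluster.

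At day 1, 199 clusters were higher (1.44% of those tested) and 187 were lower (1.35%). The median ratio of all 13812 was -0.02, with quartiles at -0.43 and 0.37. Their summed level was 966366 CPM at day 0 and 1059154 at day 1 (log2 ratio 0.13). Summed levels of lists below stand beside that ratio rather than beside no change. How the calls divided between directions moved with the scaling used. With all kept tags as the scale 156 were higher and 265 lower, and scaling by tags assigned to clusters gave 128 and 338, with a shift of the median ratio of -0.13 (-0.07 for all kept tags). Calls also depended on depth: 0 of the 2753 clusters under 5 CPM in both libraries were called, against 6 higher and 5 lower of 2090 at 5 to 10 CPM and 55 and 39 of the 1898 at 100 CPM or more. An edgeR exact test that assumed a coefficient of variation of 0.2 between animals, at an adjusted p of 0.05, left 16 higher and 13 lower. Among the higher ones were Mgmt, Ifit3, Ifit1, Isg15, Rtp4, Ifih1, Ccl12, Saa1/Saa2, Mcam, Ephx1, Atp12a, Lars2, Cox6b2 and Slc25a48. At its 3'-most site Lars2 had a ratio of 0.15 and was not called by the exact binomial test. The 12 named lower ones were Shh, Tlx3, Vim, Rpl32, Rpl15, Rpl5, Atp5g2, Rcc2, Marf1, Ppm1a, Rfx3 and Sat2. Of these, Tlx3 and Ppm1a are named here after their values were seen. Ppm1a had 4 clusters, with 116 and 61 tags in all (-0.86) against 56 and 10 in the one called.

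**Figure D1:**
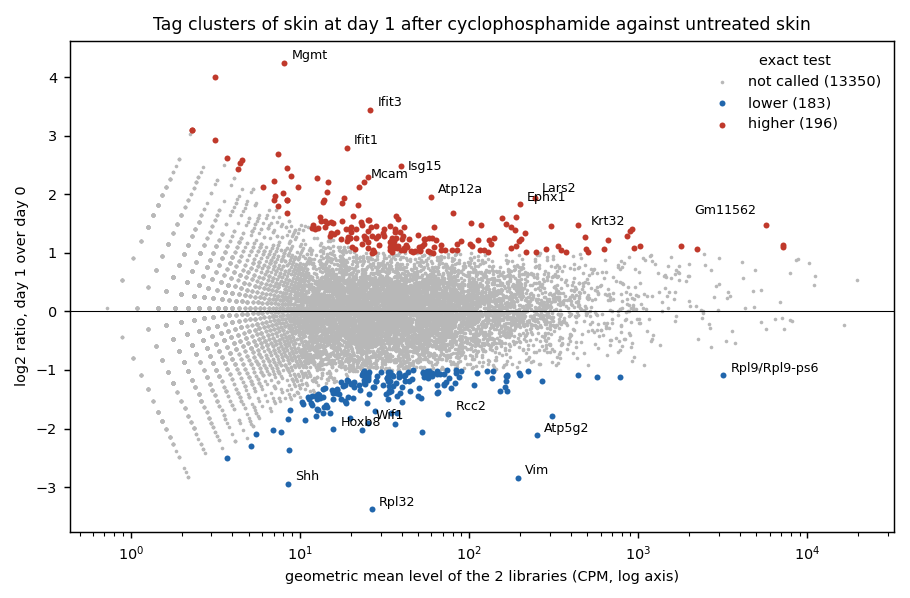
Each point is a cluster listed in both libraries, with its mean level (CPM, log axis) on the horizontal axis and its log2 ratio, day 1 over day 0, on the vertical axis. Red points were called higher and blue points lower, and the largest ratios among the labelled genes were those of Mgmt at 4.24 and Rpl32 at -3.38.

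Of 58 gene lists, the interferon-induced effectors had the highest median and the most members called higher, 12 of 35. Hair shaft keratins, S100 proteins, plasma and complement genes, muscle sarcomere genes, stress keratins and inner root sheath genes followed, with medians from 0.82 down to 0.47. The lowest medians were those of MHC class II genes at -0.57, Hox genes at -0.45 and splicing genes at -0.44. Cytosolic ribosomal proteins had the most members called lower, 5 of 37. The order of lists is a description of these libraries. Scaling by assigned tags moved the medians by -0.131 to -0.125, which brought those of the sensors, p53 targets, pigment genes and ER chaperones to 0.13, 0.21, 0.12 and 0.06 and that of mitosis genes to -0.31. Of the clusters called, 50 of the 199 higher and 32 of the 187 lower were in a list, and 149 and 155 were in none. Of all 13812 tested, 1526 were in a list.

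**Figure D2:**
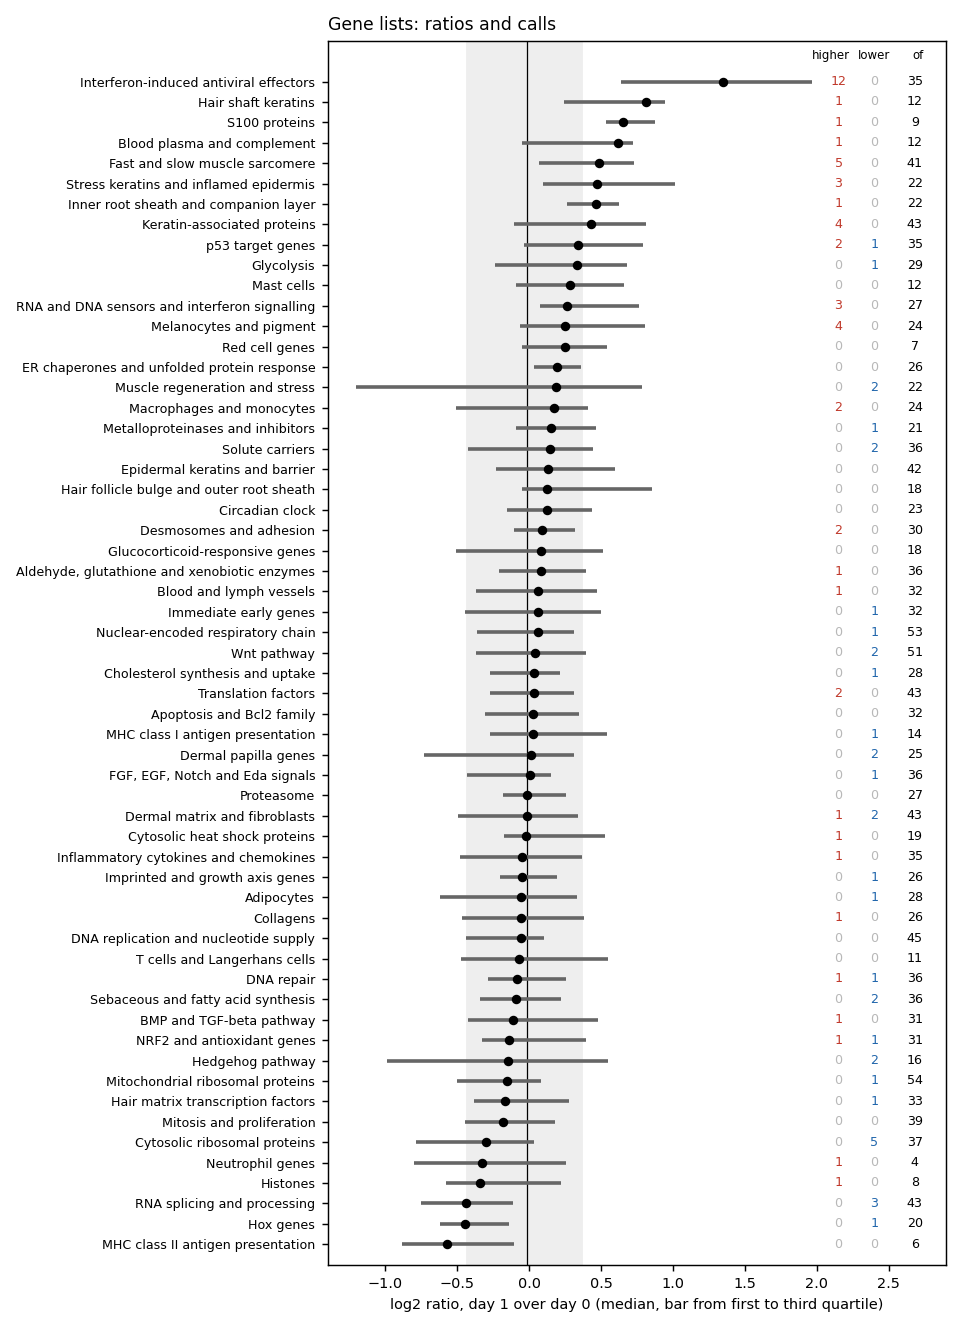
Points are the median log2 ratio of each of 58 gene lists and bars run from the first to the third quartile of its members, with the members called higher (red) and lower (blue) and the number measured at the right. The grey band spans the quartiles of all clusters tested (-0.43 to 0.37), and the interferon-induced effectors at the top lie above it from 0.64 to 1.97.

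Interferons are secreted when cells sense foreign or misplaced nucleic acid; their receptors signal through Jak1 and Tyk2 to transcription factors such as Stat2 and Irf9, which bind GAAA repeats in the promoters of antiviral genes. The effectors of this pathway were higher at day 1. Of 52 effectors listed 40 had a named cluster and 35 were deep enough to test. Of these, 12 rose and 0 fell, 31 ratios were positive and 4 negative, and the median was 1.35. Their summed level went from 444.7 to 1097 CPM (log2 ratio 1.30, 1.21 to 1.40).

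Ifit3, which binds complexes that sense viral RNA, had 22 tags at day 0 and 233 at day 1, or 7.82 and 86.6 CPM, a log2 ratio of 3.44 (2.84 to 4.17). All its tags lay at the 3'-most CATG site. Its neighbour Ifit1, which binds RNA lacking a host-type cap, had 20 and 135 tags (2.79, 2.14 to 3.58). Isg15, a ubiquitin-like protein joined to other proteins, had 47 and 253 (2.48, 2.04 to 2.97). These 3 genes have short tags that carry the counts, shown with CATG in capitals:
Ifit3, site 1: CATGtagggaatggagcttaa
Ifit1, site 1: CATGattcctacccagtttcc
Ifit1, site 3: CATGgctgaagtgcaggcaga
Isg15, site 1: CATGgaggacaaggagctgct
Sites are numbered from the 3' end of the transcript, and each tag matched 1 gene of the GENCODE M21 transcripts (GRCm38). The Ifit3 tag lies at chr19:34588647-34588667 in the 3' UTR in exon 2 of 2, and the Ifit1 tags at chr19:34649909-34649929 in the 3' UTR and chr19:34648467-34648487 in the coding part of exon 2. The Isg15 tag lies at chr4:156199666-156199686 in coding sequence. Ifit1 can be read at both sites, which had 6 and 42 tags (2.77) and 14 and 93 (2.75), close values at separate sites.

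The other 9 effectors that rose lay between 1.55 and 2.29. Rtp4, a chaperone of receptors at the membrane, had 32 and 152 tags (2.29, 1.75 to 2.91), and Rsad2, or viperin, which makes a chain-terminating nucleotide, had 9 and 42 (2.22, 1.23 to 3.51). Bst2, or tetherin, which holds budding virus at the cell surface, had 26 and 91 (1.85), and Cmpk2, a mitochondrial nucleotide kinase next to Rsad2 in the genome, had 33 and 112 (1.81). Ifitm1, a membrane protein that limits virus entry, went from 62 to 177 tags (1.57). Ifit2, Phf11d and the GTPases Irgm2 and Gbp2 made up the rest, at 1.89, 1.62, 1.57 and 1.55. Rsad2 lost its call when only the 3'-most site was counted (1.99). Some of the members not called had few tags. Mx1, Herc6, Ifit3b and Oasl1, named after their values were seen, had ratios above 2 but at most 7 tags at day 0 (Mx1 had 4 and 24). Ifi27l2a, one of the better covered members, had 411 and 680 tags and a ratio of 0.79. Ratios of Dtx3l and Parp14, with 81 and 84 and with 44 and 37 tags, were 0.12 and -0.18.

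**Figure D3:**
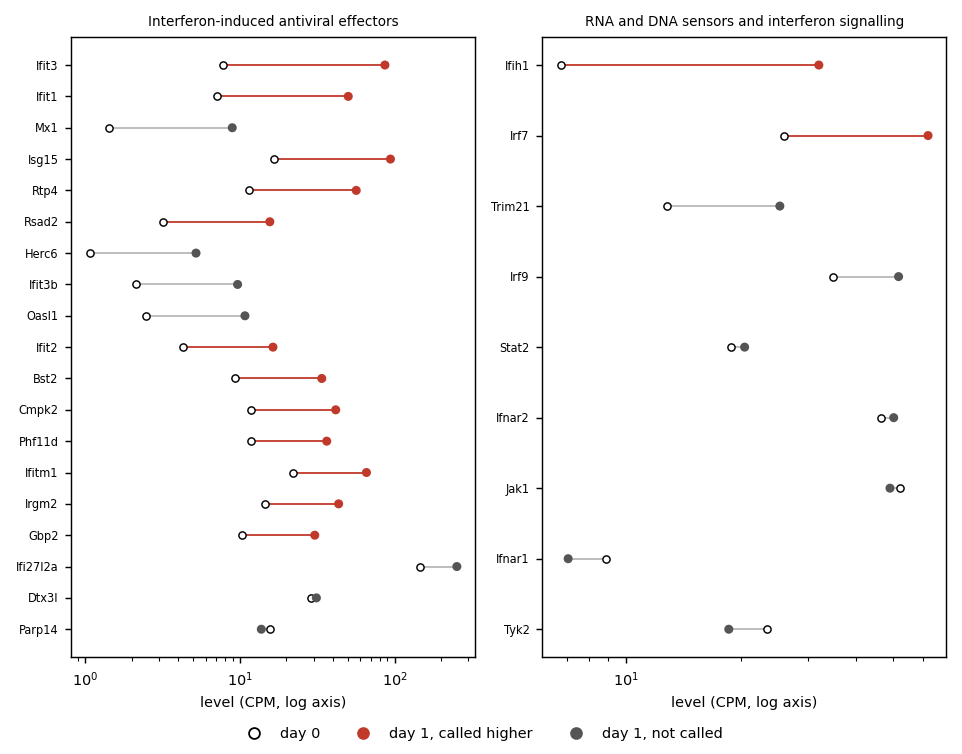
Levels in CPM on a log axis of the interferon-induced effectors (left) and the sensors and signalling genes (right) that the text names, open circles at day 0 and filled circles at day 1, joined by red lines where called higher. Ifit3 at the top of the left panel goes from 7.82 to 86.6 CPM, and of the genes on the right Ifih1 and Irf7 are red.

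Among 27 measured sensors and signalling genes of the same pathway, 3 rose and 0 fell, with a median of 0.26, and Ifih1 and Irf7 were among those that rose. Ifih1, which senses long double-stranded RNA, had 19 and 86 tags (2.21, 1.51 to 3.04). Irf7, the factor that amplifies interferon production, had 73 and 166 (1.24, 0.84 to 1.67). Most of the upstream parts lay near no change. The receptor genes Ifnar1 and Ifnar2 had 25 and 19 and 131 and 135 tags, the kinases Jak1 and Tyk2 147 and 132 and 66 and 50, and Stat2 had 53 and 55. Irf9 had 98 and 139 tags (0.57), and Trim21, an antibody receptor of the cytosol, had 36 and 68 (0.97). Antigen presentation lists were small and had few calls in number, 7.14% of class I genes being called lower against 1.35% of all clusters tested. Of 14 measured MHC class I genes 0 rose and 1 fell, H2-Q4, from 60 to 20 tags (-1.50, -2.33 to -0.77), with 7 ratios positive and 7 negative and a median of 0.02. The peptide transporter Tap1 stood at -0.26, and Tapbp, which loads peptides, had 90 and 130 tags (0.59). The chaperone Calr, at 2384 and 4466 (0.97), made up most of the list's sum, which was 569.1 and 563.7 CPM without it. Of 6 class II genes none was called by the exact test. H2-Ab1 of that group had 1263 and 638 tags (-0.92, -1.06 to -0.78), under the 2-fold limit, while its partner H2-Eb1 had 526 and 496 (-0.02).

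Promoters of the effectors were read for the letters of the interferon response element, GAAA followed by any 2 bases and GAAA again, on either strand, in RefSeq windows (GRCm38.p6) from 250 bases before to 50 after each gene's start. Overlapping matches were each counted. Of 27025 genes with a window, 3.99% held the letters, and of 8769 named genes tested 3.52%. Of the 35 measured effectors 24 had a window and 12 of these held the letters. Among effectors that rose it was 7 of 11, namely Bst2, Gbp2, Ifit1, Ifit3, Irgm2, Isg15 and Rsad2, and among those not called 5 of 13. Of all genes called higher it was 11 of 134 (8.21%), and of all called lower 6 of 133 (4.51%). The 11 include the 7 effectors just named, and the others were Apol9b, Ifi211, Ifih1 and Tgfbi. A match is a description of letters and not a bound site. The 250 bases before the start of the leading effectors are shown with the matches in capitals, TTTC being GAAA on the other strand:
Ifit3, chr19:34583279-34583528, plus strand: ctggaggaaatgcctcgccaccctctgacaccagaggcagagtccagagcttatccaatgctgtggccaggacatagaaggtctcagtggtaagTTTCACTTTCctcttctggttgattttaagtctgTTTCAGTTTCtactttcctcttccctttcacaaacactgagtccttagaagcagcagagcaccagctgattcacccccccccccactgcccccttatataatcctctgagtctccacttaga
Ifit1, chr19:34640639-34640888, plus strand: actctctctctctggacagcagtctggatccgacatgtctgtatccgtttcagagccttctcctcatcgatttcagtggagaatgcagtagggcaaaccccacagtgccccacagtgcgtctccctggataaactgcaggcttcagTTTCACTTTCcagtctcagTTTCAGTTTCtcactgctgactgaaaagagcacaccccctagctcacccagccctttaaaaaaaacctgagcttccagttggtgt
Isg15, chr4:156200819-156201068, minus strand: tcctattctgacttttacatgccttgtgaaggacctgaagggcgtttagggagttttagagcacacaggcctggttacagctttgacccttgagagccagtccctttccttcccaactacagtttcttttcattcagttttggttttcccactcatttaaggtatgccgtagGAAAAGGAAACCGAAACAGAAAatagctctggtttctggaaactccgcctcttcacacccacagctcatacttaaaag
Ifit3 and Ifit1 each held 2 matches, beginning 156 and 122 bases before the start in Ifit3 and 104 and 85 in Ifit1. Isg15 held 3 matches that overlap, beginning 78 to 66 bases before its start.

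The gene with the largest ratio at 20 CPM or more was Mgmt, whose protein takes alkyl groups off guanine and is used up in doing so. It had 5 tags at day 0 and 99 at day 1, a ratio of 4.24 (3.10 to 6.03), and the exact test gave it an adjusted p of 6.87e-23. Of the day 1 tags 86 came from a site numbered 17 from the 3' end, in the coding part of exon 5 at chr7:137127984-137128004:
Mgmt, site 17: CATGagggcatcccgaccgga
Among 36 measured DNA repair genes Mgmt was the 1 that rose. The 1 that fell was Ercc3, a helicase of nucleotide excision repair, from 160 to 65 tags (-1.23, -1.67 to -0.81). The list's median was -0.09, with 16 ratios positive and 20 negative.

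Targets of p53, the factor activated by DNA breaks, lay mostly above zero, with 24 of 35 ratios positive and a median of 0.34. Of these, 2 rose and 1 fell. Ephx1, which opens epoxides and is both a p53 target and a detoxifying enzyme, had 299 and 1014 tags (1.82, 1.64 to 2.02). Tnfrsf10b, a death receptor, had 25 and 70 (1.53), and its sites with 20 or more tags gave 1.51 and 1.51. Gadd45a, a stress gene of growth arrest, fell from 93 to 36 (-1.29, -1.90 to -0.74). Rps27l, which p53 also induces, was counted with the ribosomal proteins and not in this list, and fell from 2382 to 1044 (-1.12). Other well known targets were not called. Cdkn1a, an inhibitor of the cell cycle, had 97 and 91 (-0.03), but 9 and 41 tags at its 3'-most site (2.19). Mdm2 had 122 and 93 (-0.33) and Ccng1 had 31 and 49 (0.72, 0.05 to 1.42). Genes that could handle the drug's toxic aldehyde and mustard products gave 1 call in 36 measured, that of Ephx1. Aldh7a1 and Aldh3b2, aldehyde dehydrogenases, had 138 and 239 (0.86) and 409 and 643 tags (0.72). Of 31 genes in a list of NRF2 targets and other antioxidant genes, 1 rose and 1 fell. Akr1b8, an aldo-keto reductase, had 80 and 162 tags (1.08, 0.69 to 1.49; 0.95 and not called when scaled by assigned tags), and Selenbp1, a methanethiol oxidase, 713 and 279 (-1.29, -1.49 to -1.09). None of 32 apoptosis genes was called by the exact test. Apaf1 of the apoptosome had 45 and 67 tags (0.63) and Xiap, a caspase inhibitor, 201 and 118 (-0.70).

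No member of the division lists was called, although several lay below day 0. Of 39 measured mitosis and proliferation genes 0 rose and 0 fell in the exact test, 15 ratios were positive and 24 negative, and the median was -0.18. Their summed level was 3052 and 2471 CPM. Nearly all of that difference was Ube2s, which adds ubiquitin to targets of the anaphase-promoting complex, with 3449 and 1840 tags (-0.84, -0.92 to -0.76), and without it the sums were 1826 and 1787 CPM (-0.03). Mki67, a protein of cycling nuclei, had 239 and 156 tags (-0.55, -0.85 to -0.25), Pbk, a mitotic kinase, 181 and 91 (-0.92) and Nusap1, a spindle protein, 155 and 78 (-0.92). Plk1, a kinase that drives entry into mitosis, had 71 and 123 (0.85, 0.42 to 1.30). Of 45 replication and nucleotide genes none was called by the exact test, with Cad, which starts pyrimidine synthesis, at 152 and 82 tags (-0.82), Cdt1, which licenses replication origins, at 87 and 156 (0.90) and Rrm2, a subunit of ribonucleotide reductase, at 49 and 94 (1.00). Outside the lists, 2 genes of the mitotic spindle and chromosomes were among those that fell most. Aspm, a protein of spindle poles, had 58 and 15 tags (-1.85, -2.81 to -1.05), and Rcc2, which binds chromosomes in mitosis, 389 and 110 (-1.75, -2.08 to -1.45).

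Signals of the hair matrix differed by gene more than by pathway. Shh, the Hedgehog ligand made by one side of the matrix, had 68 tags at day 0 and 8 at day 1 (-2.95, -4.29 to -1.96), for which the exact test gave an adjusted p of 6.45e-11. Of its tags 66 and 8 lay at the 3'-most site, in the 3' UTR at chr5:28457102-28457122, minus strand:
Shh, site 1: CATGttcttggaaaccaagac
Hhip, a membrane protein that binds Hedgehog ligands and is itself switched on by the pathway, fell from 33 to 6 tags (-2.30, -3.94 to -1.12), but its 3'-most site by itself, with 26 and 6 tags, was not called (-1.97). Of 16 measured Hedgehog genes these 2 fell (12.5%, against 1.35% of all clusters tested) and 0 rose, with 7 ratios positive, 9 negative and a median of -0.15. Other pathway targets had lower ratios without a call, with Gli1, the transcription factor that reports pathway activity, at 73 and 35 tags (-0.99, -1.62 to -0.39). Ptch1, the receptor and also a target, had 119 and 97 (-0.23). Smo, the signal transducer, had 206 and 294 (0.58), and Sufu, an inhibitor, 65 and 31 (-0.99). Of 51 Wnt genes 2 fell (3.92%, against 1.35% of all clusters tested) and 0 rose, with 27 ratios positive, 24 negative and a median of 0.04. Wif1, which binds Wnt ligands outside the cell, had 138 and 35 tags (-1.90, -2.49 to -1.37), and Znrf3, which takes Wnt receptors off the cell surface, 70 and 26 (-1.35), lower at both sites with 20 or more tags (-1.58 and -1.10). The ligand Wnt3 had 169 and 299 tags (0.89, 0.61 to 1.17) and Wnt10b, the ligand of early matrix cells, 35 and 16 (-1.04). Ctnnb1, encoding beta-catenin, had 1289 and 923 (-0.42), and Axin2, a common read-out of the pathway, 156 and 134 (-0.15).

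Among 31 BMP and TGF-beta genes 1 was called higher, Bmp7, from 92 to 178 tags (1.01, 0.65 to 1.40). Its leading tag, with 72 and 154 copies, runs into a stretch of A after a few bases and matched no transcript, so it cannot be tied to this gene from its letters:
Bmp7 cluster, site 1: CATGaatgaaaaaaaaaaaaa
The call was lost when scaled by all kept tags (0.94) or by assigned tags (0.88). Ltbp3, which holds latent TGF-beta, had 525 and 1000 tags (0.99). In the list of FGF, EGF, Notch and Eda signals 1 of 36 was called, Traf6, a signalling ligase, which fell from 139 to 60 (-1.14, -1.61 to -0.70), and Fgfr2, the receptor of matrix growth factors, had 157 and 87 (-0.78). Of 33 hair matrix transcription factors Tbx1 fell, from 156 to 72 (-1.05), though its 3'-most site, with 11 and 8 tags, gave -0.38. Barx2 had 327 and 160 (-0.96) and Dlx3, which controls hair keratin genes, 768 and 1111 (0.60). Hox genes, which keep positional identity in skin, were mostly below zero, with 16 of 20 ratios negative and a median of -0.45. Hoxb8 was the 1 that fell, from 90 to 21 tags (-2.01, -2.80 to -1.34). Its neighbours in the same cluster Hoxb6 and Hoxb7 had 106 and 52 (-0.96) and 120 and 73 (-0.65), and Hoxc13, which drives hair keratins, had 548 and 407 (-0.36). Dermal papilla genes gave Wif1 and Hhip again as the 2 called of 25. Crabp2 of that list had 431 and 613 tags (0.57) and Vcan, a proteoglycan of the papilla, 89 and 51 (-0.73).

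Structural genes of the hair lay mostly above day 0. Of 12 measured hair shaft keratins 11 ratios were positive, with a median of 0.82 and a summed level of 8145 and 13045 CPM. Krt32 of the shaft cuticle rose from 1546 to 3596 tags (1.28, 1.20 to 1.37). Krt33b had 4894 and 9175 (0.97, 0.92 to 1.02) and Krt86 2374 and 4351 (0.94), both just under 2-fold, while Krt35, an early keratin of the shaft, had 3968 and 2747 (-0.47). Of 22 genes of the inner root sheath and companion layer 18 ratios were positive, with a median of 0.47 and 1 call. Krt72 of the sheath rose from 161 to 342 (1.15, 0.88 to 1.43), and its sites with 20 or more tags were all higher (0.81 to 1.91). Krt27 had 18120 and 32115 tags (0.89). Gata3, a factor that specifies the sheath, had 1134 and 772 (-0.49), and 154 and 160 at its 3'-most site (0.12).

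Of 43 keratin-associated proteins, the matrix between hair keratin filaments, 4 rose and 0 fell, with a median of 0.43. Krtap12-1 had 738 and 1966 tags (1.48, 1.36 to 1.60), Krtap16-3 63 and 138 (1.19) and Krtap4-6 1952 and 4031 (1.11; 0.98 and not called when scaled by assigned tags). Krtap7-1 had 13529 and 28408 (1.14). Most of those, 12026 and 25496, were a tag that ends in A and matched no transcript, and its site 2, which did match, had 601 and 955 (0.73). Its exact tags of 1 gene gave 0.60 and no call:
Krtap7-1 cluster, site 1: CATGcatcacaaaaaaaaaaa
Krtap7-1, site 2: CATGagagactgaaaatgaca
The family did not move as one, since 13 of the 43 ratios were negative, among them Krtap21-1, with 7526 and 5167 tags (-0.48; 53 and 51 by exact tags of 1 gene), and Krtap9-1, with 3928 and 2851 (-0.40). Several predicted protein-coding genes close to Krtap genes had some of the largest differences in CPM among named genes called. Gm11562 (chr11:99619619-99620435) had 9587 and 25606 tags (1.48, 1.45 to 1.52), with 12 Krtap genes within 100 kb and Krtap2-4 as the nearest. Gm11567 and Gm11568 on the same chromosome had 1564 and 3860 (1.37) and 1827 and 3679 (1.07), with 9 and 8 Krtap genes in that distance. Gm10229 (chr16:89015284-89015846), with 7 Krtap genes near it, had 13783 and 28346 tags (1.11), and its 3 sites with 20 or more tags were all higher (0.99 to 1.68). Gprc5d, a receptor of the hair keratogenous zone, rose from 3420 to 7125 tags (1.12). When scaled by assigned tags, Gm10229, Gm11568 and Gprc5d were under 2-fold (0.97, 0.94 and 0.99).

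Pigment cell genes gave 4 calls higher and 0 lower of 24, with a median of 0.25. Gpr143, a receptor of melanosomes, had 59 and 175 tags (1.62, 1.20 to 2.08). Slc45a2, a transporter of melanosomes, had 110 and 251 (1.25, 0.93 to 1.59) and was higher at each of its 3 sites with 20 or more tags (1.16 to 1.63). Pmel, whose fibres carry melanin, had 243 and 540 (1.22). Mcam, an adhesion molecule of pigment cells and also of vessel walls, had 31 and 139 (2.21, 1.66 to 2.84). The list did not rise as a whole, with Tyr, the rate-limiting enzyme of melanin synthesis, at 126 and 116 tags over its 4 clusters (-0.05), and Mitf, the master regulator of the lineage, at 198 and 126 (-0.59). Gpnmb had 834 and 1539 (0.95) and Mlana 819 and 980 (0.32). Of 18 bulge and outer root sheath genes none was called by the exact test, with Krt15 of the bulge at 1727 and 2789 tags (0.76) and Gas6 at 602 and 1056 (0.88).

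**Figure D4:**
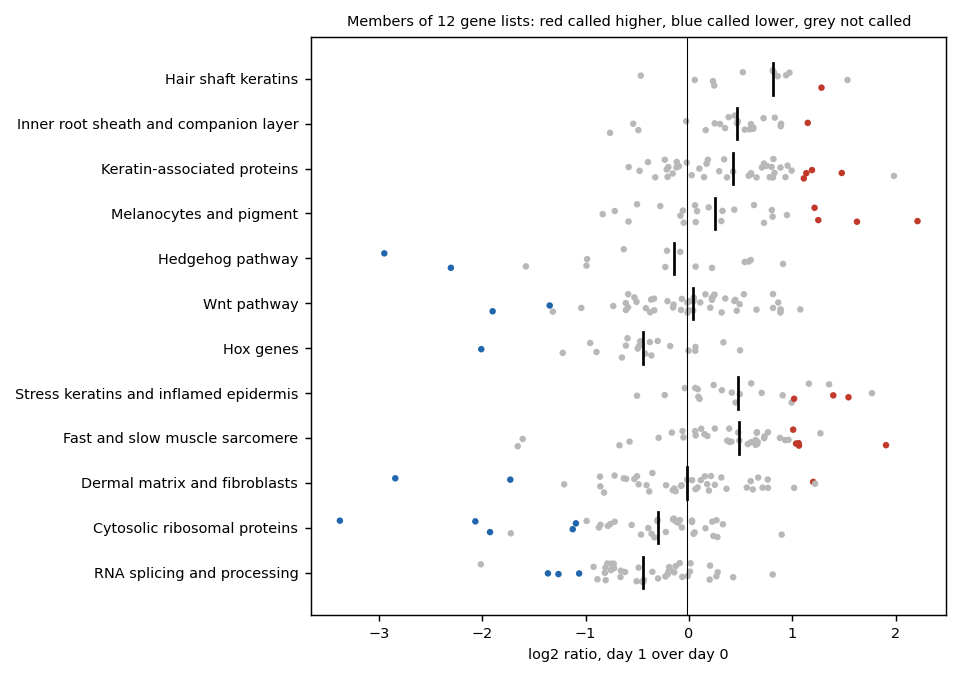
Each point is the log2 ratio, day 1 over day 0, of a member of 1 of 12 gene lists, and the black bars are list medians. Members listed in 1 library only are left out, red points rose and blue points fell. Hair shaft keratins centre on 0.82, Hox genes on -0.45, and the Hedgehog genes reach down to -2.95 at Shh.

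In the epidermis, none of 42 keratin and barrier genes was called by the exact test. Krt14 of the basal layer had 231 and 249 tags (0.17), most of them at site 3 from the 3' end (174 and 179). The Krt14 cluster stood at 82.1 and 92.6 CPM, against 4712 and 4974 CPM for Krt5. Its ratio describes these sites, and whether the cluster holds all Krt14 tags was not tested. Krt10 of the layers above had 17833 and 26723 tags (0.65). Cdsn, which holds corneocytes together, had 33 and 68 (1.10, 0.49 to 1.75), and 66 and 116 over both of its clusters (0.87). Genes of stressed or inflamed epidermis were above day 0, with 19 of 22 ratios positive, a median of 0.47 (0.99 at 3'-most sites) and 3 calls. Krt16, a keratin of wounded epidermis that the companion layer also makes, rose from 324 to 816 tags (1.40, 1.21 to 1.59). S100a9, an alarmin of neutrophils and inflamed keratinocytes, had 23 and 65 (1.54, 0.86 to 2.32). Sprr1b, a precursor of the cornified envelope, had 255 and 494 (1.02; 0.94 and 0.89, and not called, when scaled by all kept tags or by assigned tags). Krt17 had 6161 and 11035 tags (0.91). Of 30 desmosome and adhesion genes 2 rose and 0 fell. Lama3, a laminin chain of the basement membrane, was among those that rose, with 66 and 139 tags (1.13). Jup, plakoglobin of the desmosome, had 2754 and 1755 (-0.58). Of 9 S100 proteins 8 ratios were positive, with a median of 0.65, S100a3 of the hair cuticle having 17816 and 31149 tags (0.87). Atp12a, an ion pump that exchanges protons for potassium, was among the genes with the largest ratios, at 85 and 316 tags (1.95, 1.61 to 2.32).

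Lists of immune cell genes were small and gave few calls in number. Of 24 macrophage and monocyte genes 2 rose (8.33%, against 1.44% of all clusters tested). Their median was 0.17, and slightly negative when only 3'-most sites were counted. Fcgr1, an antibody receptor that interferons also induce, had 20 and 54 tags (1.47, 0.73 to 2.32). Its call was lost with exact tags (1.39) and with scaling by assigned tags (1.35). Ly6c1, a surface protein of monocytes and of vessel endothelium, had 302 and 781 (1.43, 1.24 to 1.63). Adgre1, the F4/80 antigen of macrophages, had 84 and 43 (-0.89) and Csf1r 179 and 164 (-0.06). Among 35 cytokines and chemokines Ccl12, which attracts monocytes, rose from 8 to 52 tags (2.69, 1.68 to 4.05). Ccl27a, made by keratinocytes, had 620 and 305 (-0.96). In the T cell and Langerhans cell list 0 of 11 were called by the exact test, in the mast cell list 0 of 12, and in the red cell list 0 of 7, with Hba-a1/Hba-a2, alpha globin genes that share a tag, at 4942 and 4194 tags (-0.17). Only 4 of 15 neutrophil genes were measured, with S100a9 called and the 3 others below zero. Among plasma and complement genes, Saa1/Saa2, acute phase proteins whose tag occurs in both genes, had 42 tags at day 1 and was not listed at day 0. Hp, or haptoglobin, had 2295 and 4010 tags (0.87, 0.80 to 0.94). Alb, the liver's albumin, had 21 and 11.

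Skeletal muscle genes were above day 0, with 32 of 41 sarcomere ratios positive and a median of 0.49. Of these, 5 rose and 0 fell. Myh4, the fastest myosin heavy chain, had 20 and 73 tags (1.91, 1.20 to 2.73). Actn3 of fast fibre Z lines had 554 and 1108 (1.06), Tnnt3, fast troponin T, 4317 and 8613 (1.06), Myh2 89 and 175 (1.04) and Mb, myoglobin, 745 and 1433 (1.01). Those last 4 were under 2-fold when scaled by all kept tags (0.93 to 0.99) or by assigned tags (0.88 to 0.93). The 3'-most site of Tnnt3 had the opposite direction, with 39 and 26 tags (-0.51). Acta1, the thin filament actin, had 13137 and 16236 (0.37). The muscle stress and regeneration list moved otherwise, with 0 higher and 2 lower of 22. Xirp2, which binds actin at muscle ends, fell from 148 to 53 tags (-1.41, -1.90 to -0.95), and Gadd45a is shared with the p53 targets. The median of that list, 0.19, became 0.44 when its 3 members not listed in 1 library were set to 3 tags there. Among genes with the largest ratios were Fbxo40 and Asb2, ligase subunits of muscle, with 11 and 54 (2.31, 1.41 to 3.44) and 13 and 56 tags (2.13, 1.28 to 3.17). The summed sarcomere level was 16509 and 24918 CPM, and that of the dermal matrix list 12831 and 11720. The part of muscle content of the skin pieces in these values was not tested.

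In the dermis, Vim, the intermediate filament of fibroblasts and other mesenchymal cells, had the third largest fall among named genes at 20 CPM or more, from 1466 to 195 tags (-2.84, -3.07 to -2.63). The fall rested on the 3'-most site, whose tag went from 1402 to 89, while site 2 had 54 and 66 tags (0.35) and site 3 had 10 and 20 (1.03). Sites 1 and 2 lie in coding exons 6 and 4 of 8, at chr2:13580122-13580142 and chr2:13578625-13578645:
Vim, site 1: CATGaaggaagagatggctcg
Vim, site 2: CATGtccagatcgatgtggac
Among other genes of fibroblasts and their matrix, Sparc, a matrix protein, had 24125 and 20684 tags (-0.16), Pdgfra, a fibroblast receptor, 56 and 69 (0.36) and Dcn, decorin, 1328 and 896 (-0.50). Of 43 dermal matrix genes 1 rose and 2 fell, the other fall being that of Aspn, a small proteoglycan, from 178 to 51 (-1.73, -2.22 to -1.28), which at its site 4 had 9 and 12. Pcolce2, which aids collagen processing, rose from 67 to 148 (1.20, 0.78 to 1.65). Of 26 collagens Col18a1, whose fragment is endostatin, rose from 122 to 234 (1.00; 0.93 and 0.87, and not called, when scaled by all kept tags or by assigned tags). The fibrillar collagen Col1a2 had 4184 and 2121 tags (-0.92, -0.99 to -0.84), while Col1a1, its partner chain, had 1064 and 909 (-0.16). Col1a2 sites with 20 or more tags ranged from -1.50 to 0.06, with -1.06 at the 3'-most site (3340 and 1531) and -0.26 at site 3 (459 and 366). Most Col1a1 tags lay at site 2 (865 and 762). Serpinf1, an inhibitor of vessel growth, fell from 342 to 157 (-1.06) the 1 call among 21 proteinases and inhibitors. In the vessel list, 1 of 32 was called, Mcam. Fat and lipid lists had 2 of 36 sebaceous, 1 of 28 cholesterol and 1 of 28 adipocyte genes called lower and 0 higher. These small numbers were 5.56%, 3.57% and 3.57% of the lists, against 1.35% lower of all clusters tested. The medians were -0.09, 0.04 and -0.06. Mest, an imprinted gene of growing fat, fell from 58 to 20 (-1.45), Scd3 and Fads2, desaturases of sebaceous fat, from 295 to 140 (-1.01) and 259 to 122 (-1.02), and Idi1 of sterol synthesis from 688 to 310 (-1.08). Scd3 was not called under DESeq2 size factors (-0.99) and Fads2 lay just under 2-fold by exact tags. Adipoq had 564 and 399 (-0.43).

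Genes of the RNA and protein machinery had most of their calls below zero. Splicing genes gave 35 negative ratios of 43, with a median of -0.44 and 3 falls. Srsf7, a splicing factor, fell from 688 to 255 tags (-1.36, -1.58 to -1.16), Hnrnpa1, which binds nascent RNA, from 312 to 124 (-1.26, -1.58 to -0.96) and Luc7l2, of the U1 complex, from 276 to 126 (-1.06; -0.85 and not called by exact tags). Cytosolic ribosomal proteins gave 26 negative ratios of 37, a median of -0.30 and 5 falls. By exact tags of 1 gene the median of those still measured was -0.80, the lowest of the 58 lists under that setting, and at 3'-most sites -0.54. The Rpl32 cluster stood at 86.7 and 8.18 CPM, with 244 and 22 tags (-3.38, -4.11 to -2.78). All its tags lay at site 4, in coding exon 2 of 3, so the ratio describes that site:
Rpl32, site 4: CATGctgcccagcggcttccg
Rpl15 had 304 and 69 (-2.07), Rpl5 200 and 50 (-1.92), Rps27l, a p53-induced relative of a small subunit protein, 2382 and 1044 (-1.12), and Rpl9/Rpl9-ps6, a gene and a pseudogene that share a tag, 13049 and 5842 (-1.09). Only 37 of 82 listed ribosomal genes were measured. The well covered Rplp1 (49800 and 40753 tags) and Rpl13a (20670 and 18355) stood at -0.22 and -0.11. Whether the much smaller Rpl32, Rpl15 and Rpl5 clusters hold all tags of their genes was not tested. Of 54 mitochondrial ribosomal proteins Mrpl24 fell, from 679 to 303 (-1.10), and of 53 nuclear respiratory genes Atp5g2, a ring subunit of ATP synthase whose tags are shared with other reference genes, from 1477 to 326 (-2.11, -2.29 to -1.94). Of 43 translation factors 2 rose and 0 fell, with a median of 0.03. These were Eif3i at 1216 and 2435 tags (1.07; 0.99 and 0.94, and not called, when scaled by all kept tags or by assigned tags) and Eif4g1, the scaffold of cap binding, at 687 and 1354 (1.04; 0.97 and 0.91 under the same scalings, and not called). Eif4g1's tags that match 1 gene exactly had 55 and 53 (0.01). H2afj, a histone variant, rose from 518 to 1366 (1.46, 1.32 to 1.61), with 384 and 1102 of them at 1 tag of site 5. None of 27 proteasome genes was called by the exact test.

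Stress, clock and metabolic lists were small and gave few calls in number. Those lower were 3.13% of immediate early, 3.45% of glycolysis and 5.56% of solute carrier genes, against 1.35% of all clusters tested. Those higher were 5.26% of heat shock genes, against 1.44% of all clusters tested. Among 32 immediate early genes Ier2 fell from 246 to 84 tags (-1.48, -1.86 to -1.12), and Klf4 and Klf6, factors of keratinocyte maturation and stress, had 899 and 476 (-0.85) and 371 and 191 (-0.89). Of 19 heat shock genes Hspa1a, the inducible HSP70, rose from 64 to 142 (1.21, 0.78 to 1.66), while Hsp90aa1 had 712 and 1024 (0.59). In the ER list 21 of 26 ratios were positive, with a median of 0.19 and 0 calls in the exact test, and Calr, a calcium-binding chaperone, had 2384 and 4466 tags (0.97, 0.90 to 1.04). Of 23 clock genes and 18 glucocorticoid-responsive genes none was called by the exact test, with Per1 at 104 and 114 tags (0.20) and Nr3c1, the glucocorticoid receptor, at 202 and 113 (-0.77). Slc16a1, a lactate carrier counted with both the glycolysis and the solute carrier lists, fell from 62 to 21 (-1.48), and Slc24a3, a calcium exchanger, from 79 to 31 (-1.27). Ldha, which makes lactate, had 74 and 121 (0.77). Igfbp7 of the growth axis list had 2533 and 4380 (0.85).

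Further genes with the largest ratios belonged to none of these lists. Slc25a48, a mitochondrial carrier, had 10 and 54 tags (2.44, 1.51 to 3.64), Cox6b2, a testis form of a cytochrome oxidase subunit, 16 and 76 (2.28, 1.52 to 3.19) and Cpt1c, a brain form of carnitine palmitoyltransferase, 20 and 80 (2.04, 1.34 to 2.85). Downward, Marf1, an RNA-degrading protein first known from oocytes, had 133 and 31 (-2.02, -2.65 to -1.46; 133 and 42 over both of its clusters, -1.59), Mpst, a sulfur transferase, 105 and 28 (-1.82) and Capn7, a calpain, 193 and 55 (-1.74). Gtpbp6 had 78 and 22 (-1.74), and Mtmr10 had 71 and 20 (-1.74), lower at both sites with 20 or more tags (-2.55 and -2.26). Rfx3, a factor of cilia genes, and Sat2 had 25 and 20 tags at day 0 and were not listed at day 1.

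Because a gene can be cut at several CATG sites, the calls could be read within genes. Of the 199 clusters called higher, 57 had 2 or more sites with at least 20 tags, and in 47 of them all such sites had the direction of the call. Of the 187 called lower it was 33 of 41. Each call was made on the sum of these same sites, so their agreement is partly built in and is no separate check. The share among clusters not called was not computed. Where sites differed, the call described a site rather than the gene. The cluster named Lars2, after the mitochondrial leucyl-tRNA synthetase, rose from 350 to 1287 tags (1.94, 1.77 to 2.12). Its tags were matched to GENCODE transcripts only, and whether they have another source was not tested. The rise lay at site 4, whose leading tag had 284 and 1213 copies, while the 3'-most site had 64 and 68 (0.15). Both tags lie in the 3' UTR in exon 21, at chr9:123462153-123462173 and chr9:123462577-123462597:
Lars2, site 4: CATGgtaatcctgctcagtac
Lars2, site 1: CATGagactcttgtctcaaag
In Cdkn1a the sites had opposite signs. Site 2, in coding sequence, had 88 and 50 tags (-0.75), and the 3'-most site, in the 3' UTR, 5 and 24 copies of its exact tag (2.22):
Cdkn1a, site 2: CATGgcgggctgtctccagga
Cdkn1a, site 1: CATGtattgtggctccctccc
Tnnt3 had 4202 and 8421 copies of its leading tag at site 2, while its 3'-most site had 39 and 26 (-0.51). Rcc2 was lower at both measured sites, by different amounts (-1.95 and -0.54).

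**Figure D5:**
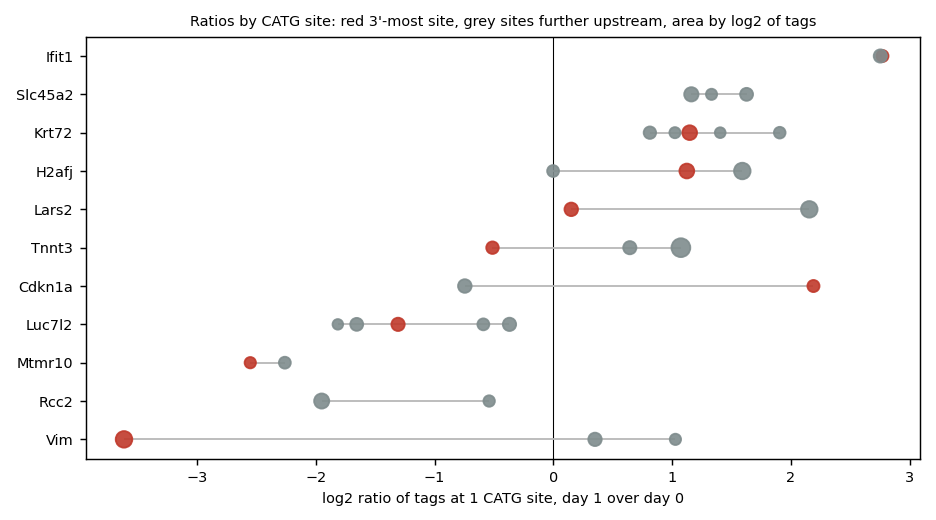
Each point is 1 CATG site of a gene with 20 or more tags over the 2 libraries, placed at its log2 ratio of day 1 over day 0, with the 3'-most site in red and sites further upstream in grey. The 11 genes were chosen after their values were seen. Points of Ifit1 lie together at 2.77 and 2.75, while those of Vim spread from -3.61 to 1.03.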

How the data were processed

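Members and gene lists were chosen with earlier results of these data known. The deposited tables give, per UniGene cluster, a raw tag count and TPM, here tags per 1000000 of all tags the authors kept, with no length correction. They also give each tag with its copy number and its CATG site counted from the 3' end. The sources used here name no mapping tool, UniGene build or genome build. The TPM values served only to recover the kept tags (6030090 at day 0 and 6070057 at day 1, of which 45.3% and 47.1% were assigned to clusters).

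Clusters were named by exact sense-strand matches of their tags to GENCODE M21 transcripts (GRCm38), with RefSeq accessions for the rest. Of 20595 clusters 15076 were named by tags of 1 gene, 767 by tags shared between genes and 195 by accession, and 4557 had no name. Where several clusters carried a name, values are those of the cluster with the most tags unless stated. Clusters with 15 tags or more over the 3 libraries were tested (13812, of which 12006 had a name). Raw counts were scaled with TMM in edgeR 4.0.16 (R 4.3.3; factors 1.03 at day 0 and 0.94 at day 1). edgeR's quasi-likelihood test could not be fitted without replicates, so the 2 counts of each cluster were compared by an exact conditional binomial test, two-sided (scipy 1.17.1, numpy 2.4.6, pandas 2.3.3, Python 3.11.15), with 95% Clopper-Pearson intervals. The procedure was tested on simulated data with counting error only. Those data held no variation between animals, so they do not show how the test behaves with it.

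Named genes were the 15 called each way with the largest ratios at 20 CPM or more, the 10 with the largest difference in CPM, list members that were called and up to 4 others a list, genes with 20 tags or more that were not listed in the other library, and a short fixed set. Other genes named were chosen after their values were seen, and some genes are not reported here. The alternatives were other scalings (DESeq2 1.42.0 among them), filters, tag sets and edgeR's exact test with an assumed variation.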

Additional observations from a re-analysis of the deposited data

How the results depend on the processing

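No paired analysis was possible because each group held 1 library, and for the same reason no replicate could be left out. The 199 higher and 187 lower calls became 128 and 338 when scaled by tags assigned to clusters. DESeq2 size factors gave 217 and 181, TMM over the 2 libraries alone 218 and 179, no filter 191 and 181, exact tags of 1 gene 179 and 163, and the 3'-most site 169 and 199. With an assumed coefficient of variation of 0.2 edgeR's exact test at an adjusted p of 0.05 gave 16 and 13, and with 0.4 it gave 0 and 0, where 67 and 66 had an unadjusted p under 0.05. At the 3'-most site the ratio of Cdkn1a was 2.19 and that of Tnnt3 -0.51, and Gata3 stood at 0.12. Other genes that were not called changed sign too. Scaled by assigned tags, Dtx3l stood at -0.013, Ifnar2 at -0.023, Krt5 at -0.053 and Stat2 at -0.012, and by exact tags of 1 gene Ifnar1 at 0.35 and Krtap21-1 at 0.009. The cause of the changes between scalings was not tested. With all clusters of a name summed, an alternative chosen after seeing the data, Ppm1a stood at -0.86. Of 58 list medians, 15 changed sign when scaled by assigned tags, 10 by all kept tags and 11 at the 3'-most site. Setting members not listed in 1 library to the floor of 3 tags moved a list median by at most 0.25, over 8 lists. Depth limits the calls, and no cluster under 5 CPM was called.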
